A study of Mus musculus with 15 samples.

Results

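Microfibril and elastic fibre genes are described here in C2C12 cells, an established line of mouse myoblasts, the precursors of skeletal muscle fibres. The 8 genes were taken by name from a table of 23352 genes: Fbn1 and Fbn2 (fibrillins), Mfap2, Mfap4 and Mfap5 (microfibril-associated proteins), Eln (elastin, deposited as soluble tropoelastin), and Fbln2 and Fbln5 (fibulins). The choice went by name and not by a cut-off on values, but it was made with earlier results of these data known. Messenger RNA was sequenced from 5 groups of cells, each transduced with a lentiviral construct and each with 3 libraries, 15 in all. The constructs carried a dominant-negative form of the transcription factor MLX (MLX-DN), its wild-type form (MLX-WT), a hairpin that targets Mlx transcripts (MLX shRNA), a short hairpin RNA with no target (non-targeting shRNA), or a vector that expressed green fluorescent protein alone (GFP control). MLX-DN and MLX-WT are set against the GFP control, and MLX shRNA against the non-targeting shRNA. Each is also set against the other control, because the 2 controls differed for these genes. All groups were of 1 cell line. The sources used here do not give how many hairpins were used, whether cells were selected, the day of harvest, or whether the 3 libraries of a group were separate cultures. P-values therefore set a difference of group means against the spread of libraries within groups only, and that spread may be technical.

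Fibrillins assemble into beaded microfibrils outside the cell. These fibrils bear load and hold latent complexes of TGF-beta and BMP growth factors. Where elastin is made, tropoelastin is laid onto microfibrils with the help of fibulins and cross-linked by lysyl oxidases into elastic fibres, which give arteries, lung and skin their recoil. In skeletal muscle such fibres lie in the connective tissue around fibres and bundles. MLX, the factor altered in the study, belongs to the helix-loop-helix family and binds E-box sequences in DNA together with a partner such as MondoA or ChREBP.

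The 300 bases around a gene's start, 250 before it and 50 after, are shown for 4 members with an entry in the RefSeq table (GRCm38.p6), since an E-box there is the sequence feature the study's factor is known to bind. Capitals mark the E-box CANNTG on either strand, and each run is written 5′ to 3′ on the gene's own strand. Fbn1 lies on the minus strand at chr2:125506389-125506688, Fbln2 on the plus strand at chr6:91212514-91212813, Fbln5 on the minus strand at chr12:101819070-101819369, and Mfap2 on the plus strand at chr4:141010174-141010473.
Fbn1: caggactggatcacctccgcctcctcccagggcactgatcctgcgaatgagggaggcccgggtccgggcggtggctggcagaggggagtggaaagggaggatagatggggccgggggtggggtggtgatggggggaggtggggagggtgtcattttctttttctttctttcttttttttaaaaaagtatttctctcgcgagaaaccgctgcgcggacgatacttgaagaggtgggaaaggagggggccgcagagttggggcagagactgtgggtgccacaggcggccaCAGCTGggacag
Fbln2: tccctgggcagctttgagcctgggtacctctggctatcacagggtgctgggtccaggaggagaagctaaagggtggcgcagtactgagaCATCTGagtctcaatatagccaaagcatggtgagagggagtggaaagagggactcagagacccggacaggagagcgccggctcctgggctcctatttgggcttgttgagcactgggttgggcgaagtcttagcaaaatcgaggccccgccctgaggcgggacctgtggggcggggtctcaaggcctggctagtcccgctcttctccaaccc
Fbln5: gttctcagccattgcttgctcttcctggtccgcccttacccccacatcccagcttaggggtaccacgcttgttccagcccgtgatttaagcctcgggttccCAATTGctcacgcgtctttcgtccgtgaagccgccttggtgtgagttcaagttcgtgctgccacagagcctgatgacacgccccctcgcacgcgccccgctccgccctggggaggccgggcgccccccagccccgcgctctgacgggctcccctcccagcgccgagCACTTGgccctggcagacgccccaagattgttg
Mfap2: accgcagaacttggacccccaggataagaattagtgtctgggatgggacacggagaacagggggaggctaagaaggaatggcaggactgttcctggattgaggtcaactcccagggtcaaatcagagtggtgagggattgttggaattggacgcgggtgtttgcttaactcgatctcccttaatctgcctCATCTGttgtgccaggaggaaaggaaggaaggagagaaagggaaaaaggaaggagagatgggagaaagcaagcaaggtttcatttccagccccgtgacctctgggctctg

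The table held 6 such windows for these 4 genes, and the second windows of Fbln5 and Mfap2, which hold no CANNTG, are not printed. The E-box form CACGTG, which is one of the CANNTG forms and the core that MLX-containing dimers prefer, was in 0 of the 6. It was in 7.15% of all 32851 windows of that length, and CANNTG was in 72.3% of them. In the printed windows CANNTG began at position 38 relative to the start base (position 0) in Fbn1, at -161 in Fbln2, at -149 and 17 in Fbln5 and at -60 in Mfap2. A match is a description of the letters, and a window without one says nothing of binding elsewhere. Mfap4, Mfap5, Fbn2 and Eln are named only, and no window of theirs was searched for these forms.

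The deposited values are log2(FPKM + 2), where FPKM is fragments scaled by transcript length and library depth, so levels can be set side by side between genes. Estimated depth was 36.9 to 82.7 M reads per library, and libraries of 1 group correlated at r = 0.998 to 0.999 across the tested genes. Mlx RNA itself averaged 394 FPKM with MLX-DN, 644 with MLX-WT, 3.21 with MLX shRNA, 17.1 with the non-targeting shRNA and 17.1 in the GFP control, so each label fits the level of its target. Reads from the constructs may be part of the first 2 values, and MLX protein was not measured. The cells are labelled myoblasts. The 5 myoblast markers (Myod1, Myf5, Des, Cdh15 and Pax7) summed to 1250 to 1310 FPKM with MLX-DN, 1340 to 1380 with MLX-WT and 1260 to 1380 with MLX shRNA. Their sum was 1350 to 1420 FPKM in the non-targeting group and 1390 to 1410 in the GFP control. All 5 averaged at least 1 FPKM, apart from 1 of them in the GFP control. Differentiation genes were high in every group too: Myog (myogenin) averaged 445 to 706 FPKM and Myh3 (embryonic myosin) 492 to 988 FPKM. The 5 differentiation markers summed to 5180 to 5350 FPKM with MLX-DN, 6440 to 6570 with MLX-WT, 6200 to 6670 with MLX shRNA, 4690 to 4840 in the non-targeting group and 5870 to 5960 in the GFP control. This sum was lowest with the non-targeting shRNA and next lowest with MLX-DN, the groups in which Mfap5, Mfap2, Mfap4 and Fbln5 had their highest means. Most of the sum came from markers other than Myog and Myh3, and the 5 markers did not all move 1 way. Against the GFP control 4 were lower and 1 higher with the non-targeting shRNA. With MLX-DN 3 were lower, 1 was higher and 1 did not pass. Of 3 bone markers (Bglap2, Ibsp and Sp7) only Bglap2 reached a mean of 1 FPKM in any group. Bglap2 averaged 57.5 FPKM with MLX-DN, 63.0 with MLX-WT, 64.1 with MLX shRNA, 9.66 with the non-targeting shRNA, and stood at 4.51 to 4.71 in the GFP control libraries. Of 5 fibroblast markers Col1a1 made up nearly all of the sum, which was 41.6 to 46.6 FPKM with MLX-DN, 152 to 155 with MLX-WT, 48.2 to 49.8 with MLX shRNA, 206 to 224 in the non-targeting group and 441 to 450 in the GFP control, and Thy1 was near 0 in all groups. The 4 smooth muscle markers, nearly all Acta2, summed to 1060 to 1080, 1220 to 1230, 756 to 847, 1100 to 1140 and 1620 to 1700 FPKM in the same order of groups. The 4 endothelial markers summed to at most 0.225 FPKM and the 3 adipocyte markers to at most 0.504 FPKM in any library. The part of any of these marker levels in the results below was not tested, and in bulk RNA fewer cells of a type and less RNA per cell cannot be told apart.

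Levels of the 8 members covered a wide range. Fbn1 and Fbln2 were abundant, with means over 15 libraries of 100.6 and 95.6 FPKM and ranks of 766 and 809 among the 23352 genes. Mfap5 averaged 7.78 FPKM and Fbln5 4.05 FPKM. Mfap2 averaged 0.828 FPKM and Mfap4 0.464 FPKM. Eln and Fbn2 were close to the limit of detection, at 0.0214 and 0.00211 FPKM. The scaffold in these cultures was thus read mainly from Fbn1, and the gene for the elastic core was read from at most 11 estimated reads in a library.

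For testing, genes with at least 1 FPKM in at least 3 libraries were kept, 11945 in all, and limma was fitted to the deposited log2 values of all of them with Benjamini-Hochberg adjustment and a threshold of 0.05. Of the 8 members, 5 entered this test (Fbn1, Mfap2, Mfap5, Fbln2 and Fbln5) and 3 did not (Mfap4, Eln and Fbn2). Mfap2 reached 1 FPKM in the MLX-DN and non-targeting shRNA libraries alone and so entered through the groups where it was high. Log2 differences are on the log2(FPKM + 2) scale and understate the change of low genes, so ratios of mean FPKM are given beside them.

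**Figure D1:**
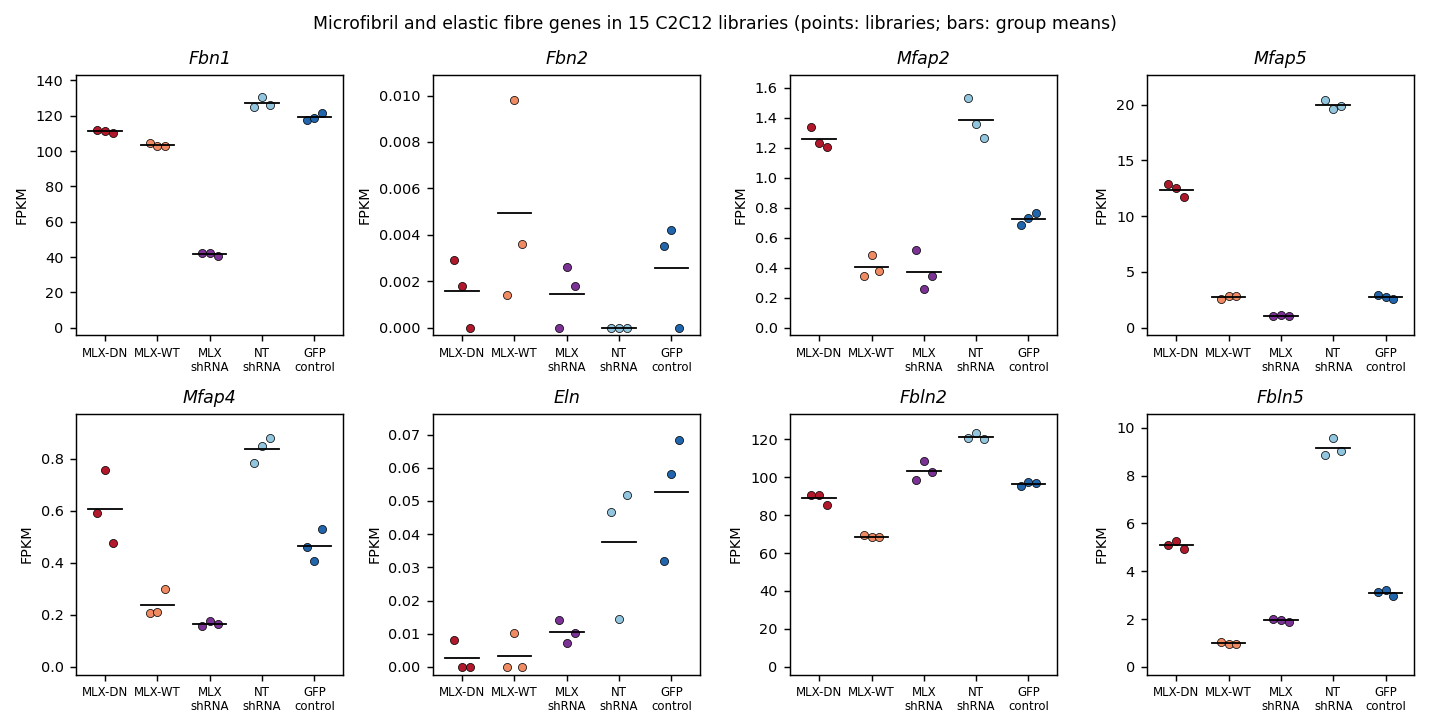
FPKM of the 8 members in each of 15 libraries, on linear axes that differ between genes. Points are libraries, horizontal bars are means of 3 libraries, and NT shRNA is the non-targeting shRNA. Fbn1 was low with MLX shRNA alone, while Mfap5, Fbln5, Mfap2 and Mfap4 had their highest means with the non-targeting shRNA and the next highest with MLX-DN.

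Fbn1 encodes fibrillin-1, the main structural protein of microfibrils and the protein mutated in Marfan syndrome in humans. It was low with MLX shRNA and close to level in the other groups. Its 3 libraries stood at 112.2, 111.4 and 110.2 FPKM with MLX-DN and at 104.5, 102.7 and 103.1 FPKM with MLX-WT. With MLX shRNA they stood at 42.2, 42.3 and 40.6 FPKM, against 124.8, 130.7 and 126.0 FPKM with the non-targeting shRNA and 117.4, 118.7 and 121.5 FPKM in the GFP control. No MLX shRNA library came near any library of another group, and none of the 5 groups overlapped.

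With MLX shRNA, Fbn1 fell to 0.328 times its mean with the non-targeting shRNA (log2 difference -1.56, SE 0.0231, limma adjusted p = 3.79e-17). Against the GFP control the ratio was 0.35 (log2 difference -1.47). With MLX-DN it was 0.933 times the GFP control (log2 difference -0.10, adjusted p = 0.00111), a call that was lost with each library centred on its median (-0.01, adjusted p = 0.76). With MLX-WT it was 0.868 times the GFP control (-0.20, adjusted p = 1.38e-06). The order of group means was the non-targeting shRNA, the GFP control, MLX-DN, MLX-WT and MLX shRNA, and each neighbouring pair passed the test (as did 73.7% of tested genes between MLX-WT and MLX shRNA), the smallest step being 0.09 between the controls, where the call was lost with quantile normalization (0.05, adjusted p = 0.0931). Fbn1 shares 20.1% of its exon bases with Gm9913 on the opposite strand in the GRCm38 annotation. No source used here says whether reads were counted by strand, so its level is uncertain to that extent.

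Mfap5 encodes MAGP-2, a small glycoprotein that binds fibrillins and is also known to bind proteins of the Notch pathway. It varied most among the tested members, with its highest group mean 18.6 times its lowest. Its libraries stood at 12.9, 12.5 and 11.7 FPKM with MLX-DN and at 2.55, 2.84 and 2.82 FPKM with MLX-WT. With MLX shRNA they stood at 1.05, 1.13 and 1.04 FPKM, against 20.4, 19.6 and 19.8 FPKM with the non-targeting shRNA and 2.89, 2.76 and 2.61 FPKM in the GFP control. MLX-WT and the GFP control overlapped, and the other groups stood apart from each other and from these. Behind the MLX shRNA values lay an estimated 59 to 82 reads per library.

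Mfap5 was lower with MLX shRNA than in either control: 0.0538 times the non-targeting shRNA (log2 difference -2.84, SE 0.0359, limma adjusted p = 8.43e-18) and 0.39 times the GFP control (-0.63, adjusted p = 1.69e-10). With MLX-DN it was 4.49 times the GFP control (1.59, adjusted p = 2.88e-15) but 0.619 times the non-targeting shRNA (-0.61, adjusted p = 1.27e-09), so the direction turned with the control. With MLX-WT the difference from the GFP control was 0.00 on the log2 scale, with a 95% interval of -0.08 to 0.07 (adjusted p = 0.912), whereas MLX-WT was 0.137 times the non-targeting shRNA (-2.21, adjusted p = 1.68e-16). The 2 controls themselves differed by a ratio of 7.26 (2.21, adjusted p = 9.73e-17), as large a step as that between MLX-WT and the non-targeting shRNA.

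Mfap2 encodes MAGP-1, the other small microfibril glycoprotein, which binds fibrillins and active TGF-beta. It was low throughout, with 1.34, 1.23 and 1.20 FPKM in the MLX-DN libraries and 0.343, 0.487 and 0.375 FPKM in the MLX-WT libraries. With MLX shRNA it stood at 0.515, 0.256 and 0.345 FPKM, against 1.53, 1.36 and 1.27 FPKM with the non-targeting shRNA and 0.687, 0.729 and 0.762 FPKM in the GFP control. MLX-DN overlapped the non-targeting shRNA and MLX-WT overlapped MLX shRNA, with the GFP control between these pairs and apart from both.

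With MLX shRNA, Mfap2 was 0.268 times the non-targeting shRNA (log2 difference -0.51, SE 0.0414, limma adjusted p = 2.4e-08) and 0.512 times the GFP control (-0.20, adjusted p = 0.000337). With MLX-DN it was 1.73 times the GFP control (0.26, adjusted p = 3.18e-05). Against the non-targeting shRNA MLX-DN was at 0.909 times, and this did not pass (-0.05, 95% interval -0.14 to 0.03, adjusted p = 0.253). With MLX-WT it was lower than in both controls, at 0.553 times the GFP control (-0.18, adjusted p = 0.00101) and 0.29 times the non-targeting shRNA (-0.49, adjusted p = 4.26e-08). The offset of 2 compresses a gene at this level: with an offset of 0.1 the difference between MLX shRNA and the non-targeting shRNA was -1.69. As Mfap2 entered the test through its MLX-DN and non-targeting shRNA libraries, differences that place these groups high are no support.

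Mfap4 encodes a fibrinogen-related protein that binds elastin and fibrillin. It reached 1 FPKM in no library. It stood at 0.592, 0.758 and 0.475 FPKM with MLX-DN, 0.209, 0.212 and 0.299 FPKM with MLX-WT and 0.158, 0.178 and 0.164 FPKM with MLX shRNA. The non-targeting shRNA libraries had 0.783, 0.851 and 0.882 FPKM and the GFP control libraries 0.463, 0.406 and 0.531 FPKM. These values rest on an estimated 10 to 85 reads per library, and a floor of 3 reads would lie at 0.0211 to 0.0472 FPKM.

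In the fit with no filter on low values, Mfap4 was lower with MLX shRNA than with the non-targeting shRNA, at 0.199 times (log2 difference -0.39, limma adjusted p = 6.66e-07), and lower than in the GFP control, at 0.357 times (-0.19, adjusted p = 0.000273). With MLX-WT it was 0.514 times the GFP control (-0.14, adjusted p = 0.0032). With MLX-DN it overlapped the GFP control and did not pass (0.08, adjusted p = 0.0543), and it was 0.725 times the non-targeting shRNA (-0.12, adjusted p = 0.00759). Mfap4 shares 4.6% of its exon bases with Mapk7 on the opposite strand, which averaged 6.0 FPKM.

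Fbln5 encodes fibulin-5, which binds tropoelastin, lysyl oxidase-like 1 and integrins and is needed for elastic fibre formation in mice. Its libraries stood at 5.10, 5.25 and 4.93 FPKM with MLX-DN and at 1.05, 0.975 and 0.949 FPKM with MLX-WT. With MLX shRNA they stood at 2.01, 1.97 and 1.87 FPKM, against 8.85, 9.55 and 9.03 FPKM with the non-targeting shRNA and 3.12, 3.20 and 2.95 FPKM in the GFP control. None of the 5 groups overlapped, and MLX-WT, not MLX shRNA, was lowest.

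With MLX-WT, Fbln5 was 0.321 times the GFP control (log2 difference -0.77, SE 0.0324, limma adjusted p = 9.94e-12) and 0.109 times the non-targeting shRNA (-1.90, adjusted p = 3.26e-16). With MLX shRNA it was 0.213 times the non-targeting shRNA (-1.50, adjusted p = 3.45e-15) and 0.631 times the GFP control (-0.37, adjusted p = 3.64e-08). With MLX-DN it was 1.65 times the GFP control (0.48, adjusted p = 1.44e-09) but 0.557 times the non-targeting shRNA (-0.65, adjusted p = 2.12e-10). As with Mfap5, the direction with MLX-DN depended on the control.

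Fbln2 encodes fibulin-2, a larger fibulin that binds fibrillin-1, tropoelastin and basement membrane proteins. It varied least of the tested members, with its highest group mean 1.76 times its lowest. Its libraries stood at 90.6, 90.6 and 85.5 FPKM with MLX-DN and at 69.2, 68.4 and 68.2 FPKM with MLX-WT. With MLX shRNA they stood at 98.4, 108.4 and 102.6 FPKM, against 120.4, 123.0 and 119.8 FPKM with the non-targeting shRNA and 95.5, 97.3 and 96.7 FPKM in the GFP control. None of the 5 groups overlapped, and MLX shRNA lay between the controls.

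With MLX-WT, Fbln2 was 0.711 times the GFP control (log2 difference -0.48, SE 0.0308, limma adjusted p = 1.5e-09) and 0.567 times the non-targeting shRNA (-0.80, adjusted p = 4.38e-12). With MLX shRNA it was 0.852 times the non-targeting shRNA (-0.23, adjusted p = 7.91e-06) but 1.07 times the GFP control (0.09, adjusted p = 0.0119). With MLX-DN it was 0.921 times the GFP control (-0.12, adjusted p = 0.00254), a call lost with median centring (-0.03, adjusted p = 0.406), and 0.734 times the non-targeting shRNA (-0.44, adjusted p = 9.04e-09).

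Eln and Fbn2 were followed as estimated whole reads, because their FPKM values were single reads or a few reads divided by length and depth. Eln had 2, 0 and 0 reads with MLX-DN, 0, 3 and 0 with MLX-WT and 2, 1 and 2 with MLX shRNA. The non-targeting shRNA libraries had 7, 3 and 11 reads and the GFP control libraries 10, 10 and 10. Every control library had at least as many Eln reads as any library of the 3 MLX groups, with 1 tie at 3 reads. A floor of 3 reads lies at 0.00941 to 0.0211 FPKM for Eln, and intervals and floors of this kind cover counting error only. At this depth no ratio or test is given.

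Fbn2, which encodes fibrillin-2, the form prominent in developing tissue, had 2, 1 and 0 reads with MLX-DN, 1, 8 and 2 with MLX-WT and 0, 1 and 1 with MLX shRNA. It had 0, 0 and 0 reads with the non-targeting shRNA and 3, 2 and 0 in the GFP control. Apart from the 8 reads of 1 MLX-WT library, no library had more than the 3 reads of the floor (0.00329 to 0.00736 FPKM). A difference between groups was not detectable at this depth.

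**Figure D2:**
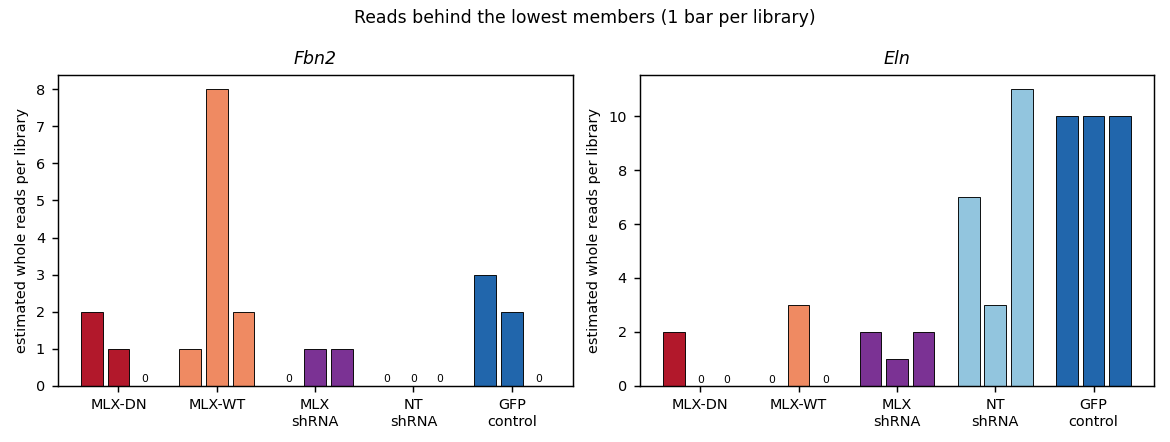
Estimated whole reads of Fbn2 and Eln in each of 15 libraries, on linear axes from 0, with a 0 printed where no read was found. NT shRNA is the non-targeting shRNA. Eln had 10 reads in each GFP control library and at most 3 in any library of the MLX-DN, MLX-WT and MLX shRNA groups.

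Counts of members called say little here, because most genes of the table differed between any pair of groups. Of the 5 tested members, 5 differed between MLX-DN and the GFP control (3 higher, 2 lower), where 81.4% of the 11945 tested genes did, with 32.6% of the tested genes called higher and 48.8% lower. Between MLX-WT and the GFP control 4 differed, all of them lower, against 70.3% of tested genes called in either direction and 42.7% called lower. Between MLX shRNA and the non-targeting shRNA 5 differed, all of them lower, against 70.1% called in either direction and 39.3% called lower. Of all genes called in these 3 comparisons 40% were higher with MLX-DN, 39.3% with MLX-WT and 43.9% with MLX shRNA, and with median centring these shares were 51.8%, 54.4% and 55.7%. Groups without overlap were as common: the 3 libraries of MLX-DN and those of the GFP control did not overlap in 83.6% of tested genes, and those of MLX shRNA and the non-targeting shRNA in 69.4%. The entry of Mfap2 through its high groups bears on each of these counts of members.

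**Figure D3:**
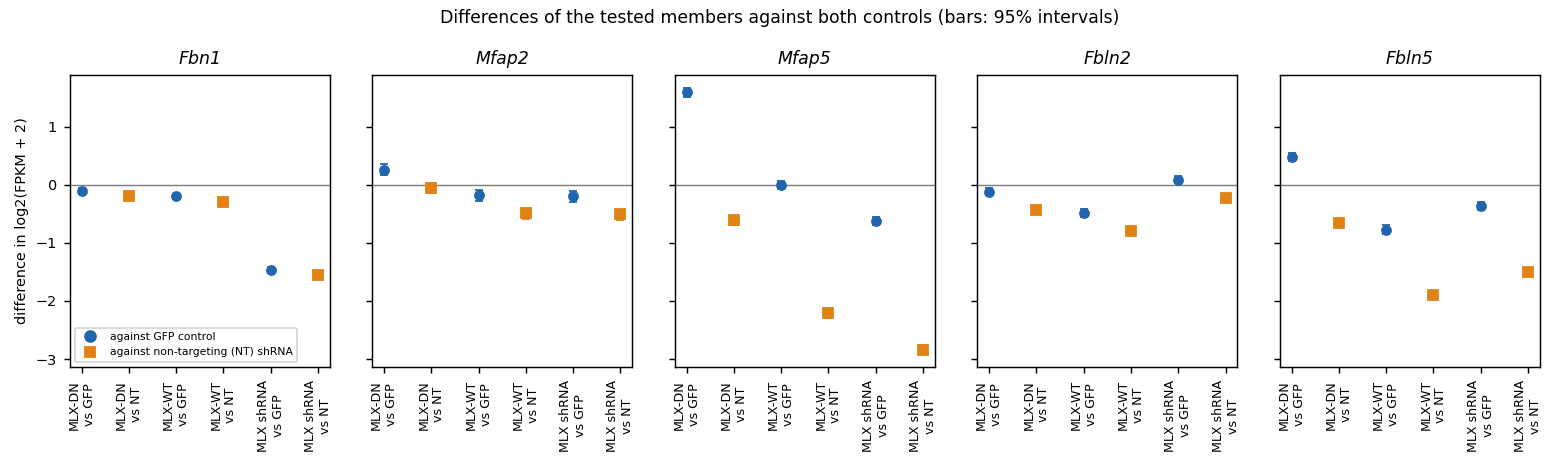
Log2 differences on the log2(FPKM + 2) scale of the 5 tested members with 95% intervals from limma, for MLX-DN, MLX-WT and MLX shRNA (3 libraries each). Circles have the GFP control as the comparison and squares the non-targeting (NT) shRNA, 3 libraries each. For MLX-DN, circle and square lay at 1.59 and -0.61 for Mfap5, and at 0.48 and -0.65 for Fbln5.

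Between the 2 controls each tested member was higher with the non-targeting shRNA than in the GFP control, where 74.1% of tested genes differed and 37% were higher. The ratio was 7.26 for Mfap5, 2.96 for Fbln5 (log2 difference 1.13, limma adjusted p = 6.44e-14), 1.91 for Mfap2 (0.31, adjusted p = 5.83e-06), 1.25 for Fbln2 (0.32, adjusted p = 1.5e-07) and 1.07 for Fbn1 (0.09, adjusted p = 0.00218). Mfap4 had a ratio of 1.8 (0.20, adjusted p = 0.000177, fit with no filter). Mfap2 entered the test through its MLX-DN and non-targeting shRNA libraries, so its direction here is no support. The fibroblast markers moved both ways between the controls, with 1 of the 3 tested higher and 2 lower: Col1a1 averaged 205.7 FPKM with the non-targeting shRNA and 442.5 FPKM in the GFP control and Pdgfra 2.06 and 2.56 FPKM, while Dpt averaged 4.64 FPKM with the non-targeting shRNA and 0.439 FPKM in the GFP control. Lum, which was not tested, stood at 0.974 and 0.0623 FPKM and Thy1 at 0.0174 and 0.0112 FPKM. The part of these markers was not tested.

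Read against both controls at once, a smaller set of differences kept 1 direction. With MLX shRNA, Fbn1, Mfap5, Mfap2 and Fbln5 were called lower than the non-targeting shRNA and lower than the GFP control, and Fbln2 was called lower than the first and higher than the second. With MLX-WT, Fbn1, Mfap2, Fbln2 and Fbln5 were called lower than both, and Mfap5 was called lower than the non-targeting shRNA alone. Since Mfap2 entered the test through its MLX-DN and non-targeting shRNA libraries, its place below the non-targeting shRNA is no support. With MLX-DN, Fbn1 and Fbln2 were called lower than both, the calls against the GFP control being lost with median centring, and no tested member was called higher than both. Against the other control, 69.7% of tested genes differed for MLX-DN, 69.9% for MLX-WT and 80% for MLX shRNA. Against their own controls 48.8%, 42.7% and 39.3% of tested genes were called lower in these groups. The share of all tested genes called lower than both controls was not counted.

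MLX-DN and MLX-WT can be compared directly, and no control enters. Fbln5, Mfap5, Fbln2 and Fbn1 were higher with MLX-DN than with MLX-WT, where 72.1% of tested genes differed and 33.2% were higher. Mfap2 was higher too, but it entered the test through its MLX-DN and non-targeting shRNA libraries, so its direction here is no support. The ratio was 5.13 for Fbln5 (log2 difference 1.24, SE 0.0324, limma adjusted p = 4.18e-14) and 4.52 for Mfap5 (1.60, adjusted p = 7.12e-15). It was 3.13 for Mfap2 (0.44, adjusted p = 1.46e-07), 1.3 for Fbln2 (0.36, adjusted p = 4.33e-08) and 1.08 for Fbn1 (0.10, adjusted p = 0.000887). Mfap4 had a ratio of 2.54 in the fit with no filter (0.22, adjusted p = 0.000104). Of the 4 macrophage markers, Ptprc (CD45) averaged 4.55 FPKM with MLX-DN and was at or near 0 in the other 4 groups, while Cd68 averaged 0.871 FPKM with MLX-DN and 1.65 FPKM with MLX-WT, Csf1r 0.146 and 0.147 FPKM, and Aif1 0.00577 and 0.0594 FPKM. Their part was not tested.

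The knockdown and the dominant-negative form were also compared through the difference of their effects, each against its own control, so that no library is shared. The effect of MLX shRNA lay below that of MLX-DN by 4.43 on the log2 scale for Mfap5 (SE 0.0508, limma adjusted p = 5.11e-18), by 1.97 for Fbln5 (adjusted p = 9.98e-15) and by 1.47 for Fbn1 (adjusted p = 6.26e-15). For Mfap2 it lay below by 0.77 (adjusted p = 1.07e-08). Mfap2 entered the test through its MLX-DN and non-targeting shRNA libraries, and both groups are subtracted here, so its direction is no support. For Fbln2 the difference of effects was -0.11 (adjusted p = 0.0303), and this call was lost when any 1 of 6 libraries was left out. Of all tested genes 74.8% had a difference of effects that passed, and 32% had a lower effect with MLX shRNA. As the 2 controls differ for these genes, the choice of control and the difference between the constructs cannot be told apart in these values. A direct comparison of MLX-DN with MLX shRNA gave ratios of 11.5 for Mfap5, 3.38 for Mfap2, 2.67 for Fbn1 and 2.61 for Fbln5, and 0.862 for Fbln2.

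For each tested member the genes whose log2 values ran most nearly parallel over the 15 libraries were listed, as a description with no test; libraries of a group lie close together, so such values rest in effect on 5 group means. Closest to Fbn1 were Chsy1 (Pearson r = 0.998), Stat3 (0.996) and Arnt (0.994). Chsy1, which encodes a chondroitin synthase, averaged 14.2 FPKM with MLX-DN, 13.1 with MLX-WT, 4.42 with MLX shRNA, 15.9 with the non-targeting shRNA and 15.3 in the GFP control. Stat3, a signal-activated transcription factor gene, averaged 51.7, 51.6, 16.6, 59.5 and 58.2 FPKM in the same order. Closest to Mfap5 were Ces2g (0.992), Ubn1 (0.979) and Snx4 (0.979), and closest to Fbln5 were Medag (0.988), Chfr (0.974) and Phf17 (0.971). Cilp, a cartilage matrix protein gene, was closest to Mfap2 (0.981), with 28.1 FPKM with MLX-DN, 0.443 with MLX-WT, 0.281 with MLX shRNA, 51.8 with the non-targeting shRNA and 6.08 in the GFP control. Closest to Fbln2 were Heatr5a, Ier5 and Pald1 (0.979 to 0.980).

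Other genes of the pathway were taken as 11 lists of 64 genes, of which 47 were tested, and the 2 of highest level in each list are named whatever their change. Some of the 47, such as Efemp1 and Fbln7, reached 1 FPKM only in groups where they were high. The directions of such genes enter the counts below and are no support. With MLX shRNA against the non-targeting shRNA 8 of the 47 were higher, 29 lower and 10 did not pass, with a median log2 difference of -0.27, against -0.02 over all tested genes. With MLX-DN against the GFP control 19 were higher and 25 lower (median -0.18, against -0.08), and with MLX-WT against the GFP control 18 were higher and 26 lower (median -0.22, against -0.05). Over all tested genes, 39.3% were called lower with MLX shRNA, 48.8% with MLX-DN and 42.7% with MLX-WT in these comparisons. In either direction the shares were 70.1%, 81.4% and 70.3%. The same shares stand behind the counts by list below. Against the other control the counts were 16 higher and 29 lower with MLX shRNA, 11 and 23 with MLX-DN, and 9 and 25 with MLX-WT. There 80%, 69.7% and 69.9% of all tested genes were called in either direction, and shares by direction are not given. Median centring and quantile normalization gave 12 and 11 higher and 28 and 29 lower with MLX shRNA against the non-targeting shRNA.

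Latent TGF-beta binding proteins, which dock growth factor complexes on fibrillin, were split with MLX shRNA, with 2 of 4 higher and 2 lower than with the non-targeting shRNA. Ltbp3 was at 0.50 with MLX-DN against the GFP control, at 0.00 with MLX-WT (adjusted p = 0.96) and at -0.46 with MLX shRNA against the non-targeting shRNA. Ltbp1 was at 0.85, 0.42 and 0.16 in these comparisons. Against the other control several directions turned: Ltbp3 was at -0.22 with MLX-DN, -0.73 with MLX-WT and 0.27 with MLX shRNA, and Ltbp1 at -0.09, -0.52 and 1.10. Of the other fibulins, 3 of the 4 tested were lower with MLX shRNA and none higher, with Fbln1 at -1.01 and Efemp2 (fibulin-4, which brings lysyl oxidase to tropoelastin) at -0.56. The remaining lower gene was Fbln7, at 0.147 FPKM with MLX shRNA and 3.42 FPKM with the non-targeting shRNA. Fbln7 passed the filter on low values only through groups where it was high, so its direction is no support. Both tested emilins, glycoproteins at the surface of elastic fibres, were lower with MLX shRNA, Emilin1 and Emilin2 each at -1.08, and lower than the GFP control too, at -0.46 and -0.53.

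Of 5 lysyl oxidase genes, 3 were lower with MLX shRNA than with the non-targeting shRNA and 2 did not pass, and with median centring or quantile normalization 1 was higher, 3 were lower and 1 did not pass. Against the GFP control 2 were higher and 3 lower. Lox averaged 190.3 FPKM with MLX-DN, 185.0 with MLX-WT, 81.5 with MLX shRNA, 179.8 with the non-targeting shRNA and 174.5 in the GFP control, so MLX shRNA was the single low group (log2 difference -1.12 against the non-targeting shRNA, limma adjusted p = 1.6e-14). Loxl1, the partner of fibulin-5, was at -0.33 with MLX-DN, -0.31 with MLX-WT and -0.01 with MLX shRNA, the last with an adjusted p = 0.67, and against the other control at -0.21, -0.19 and -0.14. Fibronectin and the proteoglycans were lower in 5 of 5 in each of these 3 comparisons (4 of 5 with MLX-DN under quantile normalization, where Fn1 was at -0.07), with Bgn (biglycan) at -0.40, -1.75 and -1.84 and Fn1, whose fibrils template microfibril assembly, at -0.35, -0.81 and -0.19. The median over that list with MLX shRNA was -1.33, and against the GFP control 4 of 5 were lower.

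Growth factors that bind microfibril complexes were lower in 4 of 4 tested with MLX-DN and with MLX-WT against the GFP control, with Tgfb3 at -0.74 and -0.83 and Tgfb1 at -0.55 and -0.56. Against the non-targeting shRNA none of the 4 was lower in either group. The ADAMTS and ADAMTS-like genes, secreted proteins of which several bind fibrillin-1, moved both ways, with Adamtsl5 at -0.88 with MLX-DN, -0.54 with MLX-WT and 0.36 with MLX shRNA, and Adamtsl2 at 0.14, -0.63 and 0.25. Against the other control all 3 values of Adamtsl5 turned, to 0.07, 0.42 and -0.59, and Adamtsl2 was at 0.05, -0.72 and 0.34, the first of which did not pass (adjusted p = 0.276). Of 7 tested integrin genes 5 were lower with MLX shRNA and 1 higher, the differences of the named ones being small, with Itgb1 at -0.05 (adjusted p = 0.028, a call lost in 6 of 15 alternatives, with 0.00868 to 0.986 over them) and Itga5 at 0.04 (adjusted p = 0.19). Against the GFP control 3 of the 7 integrin genes were higher with MLX shRNA, 3 were lower and 1 did not pass. The non-targeting shRNA was itself higher than the GFP control in 4 of the 7 and lower in 2. The 4 tested genes of the elastin receptor complex and elastin folding were lower with MLX-DN and with MLX-WT against the GFP control, with Fkbp10 at -0.64 and -0.62 and Ctsa at -0.82 and -0.51. The non-targeting shRNA was itself lower than the GFP control in 4 of 4. Against the non-targeting shRNA 3 of 4 were lower with MLX-DN and 1 did not pass, and with MLX-WT 1 was higher, 1 lower and 2 did not pass, with Fkbp10 at -0.35 and -0.32 and Ctsa at -0.20 and 0.11.

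Of the processing enzymes, Furin, which cuts profibrillin, was at -0.25 with MLX-DN, -0.25 with MLX-WT and -0.05 with MLX shRNA (adjusted p = 0.15 for the last). Mmp2, a protease that can cut elastin and fibrillin, averaged 104.0 FPKM with MLX-DN, 66.9 with MLX-WT, 83.9 with MLX shRNA, 176.6 with the non-targeting shRNA and 52.5 in the GFP control, so MLX shRNA was below the first control and above the second. The 4 other genes listed under the MFAP name, such as Mfap1a and Mfap1b, were higher with MLX-DN and with MLX-WT than in the GFP control, 4 of 4 in each, as they were with the non-targeting shRNA. Against the non-targeting shRNA 3 of 4 were higher with MLX-DN and none of the 4 passed with MLX-WT. Mfap1a and Mfap1b, which encode a spliceosome protein, are near copies that can share reads and are uncertain.

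**Figure D4:**
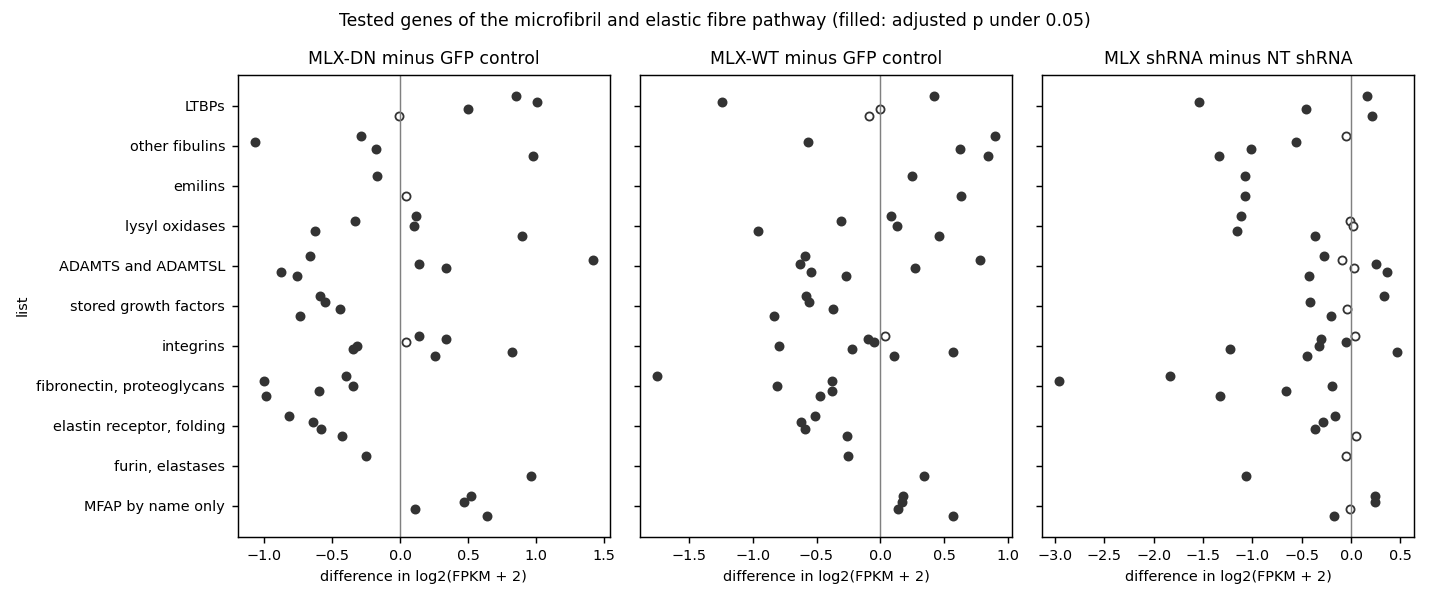
Log2 differences on the log2(FPKM + 2) scale of the 47 tested pathway genes, by list, for MLX-DN and MLX-WT against the GFP control and MLX shRNA against the non-targeting (NT) shRNA. Each point is 1 gene from 3 libraries a group, filled where the limma adjusted p was under 0.05. The fibronectin and proteoglycan genes lay left of 0 in all 3 panels, 5 of 5 in each. Of all tested genes 48.8%, 42.7% and 39.3% were called lower in these comparisons.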

How the data were processed

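The 15 libraries hold messenger RNA of C2C12 cells. Per the labels' protocols, libraries were poly(A)-selected and made with a stranded kit. The submitters' processing notes name CASAVA, TopHat2, STAR and the build mm9, with no role or version. No source used here says how reads were counted or whether by strand. A single table of log2 FPKM values for 23352 genes was deposited by the authors. Since the minimum of each library is exactly 1, these deposited numbers were taken to be log2(FPKM + 2), and FPKM was recovered by undoing that step.

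The table holds no counts, so no count model was used. Depth was estimated from the steps of low FPKM values over 14094 genes with 1 RefSeq length. At that depth 64.2% to 67.6% of low values were whole reads to within 0.05, against 29.6% to 33.0% at other depths, so the reads given for single genes are estimates. FPKM multiplied by length summed to 0.944 to 0.977 M over the genes with a length.

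The test was limma (3.58.1, R 4.3.3), two-sided, on the deposited log2 values of the 11945 genes with at least 1 FPKM in at least 3 libraries, with 1 mean per group over all 15 libraries, a variance trend and Benjamini-Hochberg adjustment within each comparison. It was also run on simulated data in which few genes changed, unlike these data, so that run is no support for the calls here. Python 3.11.15 and matplotlib 3.10.9 drew the figures. Groups came from the sample titles. The members are named whatever their values, as are the 2 genes of highest mean FPKM in each list of related genes and the 3 genes of highest correlation with each tested member. Members, lists and tests were chosen with earlier results of these data known. The settings varied were the log offset (1 and 0.1), the filter (none, or a mean of 5 FPKM), the scaling (median centring, quantile), the variance trend, fitting only the groups compared, the control, a replicate block, and omission of each library in turn. The same alternatives for the related genes, apart from the other control, the counts of lists under 2 scalings and the fit with no filter for Mfap4 were chosen after seeing the data. Overlapping genes and chromosomes came from the GRCm38 annotation.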

Additional observations from a re-analysis of the deposited data

Results flagged for a closer look

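The effect of MLX shRNA (against the non-targeting shRNA) and that of MLX-DN (against the GFP control) differed by limma's test of the difference itself in each of the 5 tested members, at -4.43 for Mfap5, -1.97 for Fbln5, -1.47 for Fbn1, -0.77 for Mfap2 and -0.11 for Fbln2 (log2 scale, MLX shRNA effect minus MLX-DN effect). Of all tested genes 74.8% passed this test, and 32% had a lower effect with MLX shRNA. Mfap2 passed the filter on low values only through MLX-DN and the non-targeting shRNA, both subtracted in this difference. Its sign and its lack of overlap here are therefore no support. All 3 MLX shRNA libraries lay below all 3 non-targeting shRNA libraries in the 5 genes, while all 3 MLX-DN libraries lay above all 3 GFP control libraries in Mfap5, Fbln5 and Mfap2 and below them in Fbn1 and Fbln2. Groups did not overlap in 69.4% of all tested genes for MLX shRNA and 83.6% for MLX-DN. Because the controls also differed, what part of these values comes from the controls was not tested.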

How the results depend on the processing

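Of 483 alternative values of the members' differences, 469 kept their side of the threshold, with no change of sign in a called difference, and of 2106 for the named related genes 2043 did. A change of sign where neither value passed was not counted as a change. With the other control, Mfap5 with MLX-DN was at -0.61, Fbln5 at -0.65 and Mfap2 at -0.05, and Fbln2 with MLX shRNA at 0.09, all of opposite sign to their own control. Itgb1 with MLX-WT was at 0.02 with median centring, and the difference of effects of Fn1 was -0.11 with quantile normalization. Requiring a mean of 5 FPKM leaves fewer members to test, so 3 were called with MLX-DN, with MLX shRNA, between MLX-DN and MLX-WT, between the controls and for the difference of effects, and 2 with MLX-WT. With median centring 3 were called with MLX-DN, as Fbn1 and Fbln2 were lost. The difference of effects of Fbln2 was lost without GFP control replicate 1, MLX shRNA replicate 1 or 3, MLX-DN replicate 1 or 2 or non-targeting shRNA replicate 2 (adjusted p 0.0541 to 0.0805, with 0.0023 to 0.0805 over its alternatives). With an offset of 0.1 the difference of effects was -6.22 for Mfap5, -2.87 for Fbln5 and -2.40 for Mfap2. The numbers of genes called stayed within 1.5 times in 99 of 99 alternatives. Replicate numbers did not pair the libraries (correlations of same-numbered deviations -0.09 to 0.15 over 5 comparisons). With the number as a replicate block, 9754, 8427 and 8394 genes were called with MLX-DN, MLX-WT and MLX shRNA, and 171 of 174 results kept their call, the 3 others being related genes. The 3-read floors of Eln and Fbn2 limit what can be said of them, and the cause of the changes above was not tested beyond the fewer members of the stricter filter.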
